A study of Mus musculus with 6 samples.

Results

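The Ifitm genes encode small interferon-induced transmembrane proteins, and 5 of them, Ifitm1, Ifitm2, Ifitm3, Ifitm6 and Ifitm10, were taken by symbol from the 18341 genes of the deposited table. The RNA came from monocytes that were sorted out of subcutaneous tumours grown in C57BL/6 mice, collected at day 13 after injection of tumour cells that overexpressed BAFF or of control cells, with 3 libraries a group. The source label names B16.F10, a mouse melanoma line. BAFF is the B cell activating factor, a TNF family cytokine, and the comparison asks how its production by the tumour alters tumour monocytes. How BAFF was expressed, whether the tumour cells were 1 clone, the sex and age of the mice, and whether a library is 1 mouse or a pool were not stated in the labels. The p-values therefore refer to these libraries rather than to mice. For the values as deposited they rest on the spread of genes of like level rather than that of the gene itself. The family was chosen by the values of 1 member, since Ifitm1 had been seen among the most increased genes of this same BAFF tumour against control tumour comparison. Fold changes of the 5 members are therefore given as a description, without p-values.

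Members of the family share a CD225 domain that sits in membranes. IFITM3 is best known for blocking the fusion of viruses that enter through endosomes, and in human cells IFITM1 acts mostly at the cell surface while IFITM2 and IFITM3 are drawn into endosomes by a tyrosine-based sorting signal near the amino terminus. Human IFITM1, also named CD225, is a partner of CD81 in the co-receptor complex of B cells. Most members respond to interferons in many cell types, Ifitm6 is best known from mouse myeloid cells, and the function of Ifitm10 is little known. Ifitm5, a bone gene, lies in the same gene cluster and is no member of the set.

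The opening of the coding sequence is shown because it is where the tested members differ in the sorting signal. The first 90 bases (30 codons) come from GENCODE mouse release M21, read 5′ to 3′ from the start codon of the longest complete coding sequence. Capitals mark an in-frame tyrosine codon followed after any pair of codons by a codon for leucine, isoleucine, valine, methionine or phenylalanine.
Ifitm1: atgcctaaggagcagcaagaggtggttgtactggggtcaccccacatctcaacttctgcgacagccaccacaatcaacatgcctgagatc
Ifitm2: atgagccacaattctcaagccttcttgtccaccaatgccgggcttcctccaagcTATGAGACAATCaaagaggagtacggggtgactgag
Ifitm3: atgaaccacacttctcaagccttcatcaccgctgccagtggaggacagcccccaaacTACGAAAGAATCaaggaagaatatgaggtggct
Ifitm6: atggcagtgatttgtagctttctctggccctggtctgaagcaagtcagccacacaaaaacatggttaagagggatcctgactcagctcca

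Ifitm2 held the pattern at codon 19 and Ifitm3 at codon 20, while the openings of Ifitm1, Ifitm6 and Ifitm10 had 0 matches. The Ifitm6 opening shown belongs to a coding sequence of 375 bases. Other complete coding sequences of Ifitm6 are 315 bases long, and their openings were not searched separately. Shorter coding sequences of Ifitm10, of 489 and 393 bases, were not searched either. For both genes the 0 matches therefore refer to the longest coding sequence only. Over their aligned coding bases Ifitm1 was 81.6% identical to Ifitm2 and 81.9% identical to Ifitm3, and Ifitm2 and Ifitm3 were 80.8% identical. Ifitm6 was more distant, at 63.5% to 68.8% identity with those 3 genes, and so was Ifitm10, at 61.1% to 69.6%. Identity bears on counting, since reads from near-identical copies can be split between genes. The longest exact run that any 2 members shared in their transcripts was 69 bases, between Ifitm2 and Ifitm3, and it is shown because it is shorter than the 101 sequencing cycles given in the labels.
Ifitm2 and Ifitm3, shared run: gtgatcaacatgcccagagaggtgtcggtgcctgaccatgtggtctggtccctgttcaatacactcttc

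The longest run shared by Ifitm1 and Ifitm3 was 64 bases and that of Ifitm1 and Ifitm2 was 40 bases. In these annotated transcripts no exact match of 101 bases was therefore shared by any pair of members. Gm45717 overlaps exons of Ifitm2 on the same strand and Gm49369 overlaps those of Ifitm10. Gm45717 stood at no more than 0.44 CPM in any library, against 99.7 CPM or more for Ifitm2. Gm49369 stood at 0.0367 to 0.2997 CPM, in the range of Ifitm10 itself, whose values are uncertain for that reason too.

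Promoter windows of the 4 tested members are shown because the group means of all 4 were higher in BAFF tumour libraries. Each holds 250 bases before and 50 after the RefSeq start in build GRCm38.p6 and is written on the gene's own strand. Capitals mark matches to the interferon-stimulated response element (GAAA, any 2 bases, GAAA) or the gamma-activated sequence TTCNNNGAA, searched on both strands.
Ifitm1 (chr7:140967826-140968125, + strand): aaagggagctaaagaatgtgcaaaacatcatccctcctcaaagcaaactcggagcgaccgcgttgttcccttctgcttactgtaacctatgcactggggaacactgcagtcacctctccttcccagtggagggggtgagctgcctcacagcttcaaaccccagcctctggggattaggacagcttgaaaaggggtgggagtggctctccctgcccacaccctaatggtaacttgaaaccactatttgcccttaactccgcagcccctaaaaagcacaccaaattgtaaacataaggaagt
Ifitm2 (chr7:140955912-140956211, - strand): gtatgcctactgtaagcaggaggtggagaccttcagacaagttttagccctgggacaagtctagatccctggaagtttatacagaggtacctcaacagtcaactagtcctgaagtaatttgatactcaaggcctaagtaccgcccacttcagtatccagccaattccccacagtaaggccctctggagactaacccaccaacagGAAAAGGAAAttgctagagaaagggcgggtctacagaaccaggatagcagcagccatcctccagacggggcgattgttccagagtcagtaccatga
Ifitm3 (chr7:141010695-141010994, - strand): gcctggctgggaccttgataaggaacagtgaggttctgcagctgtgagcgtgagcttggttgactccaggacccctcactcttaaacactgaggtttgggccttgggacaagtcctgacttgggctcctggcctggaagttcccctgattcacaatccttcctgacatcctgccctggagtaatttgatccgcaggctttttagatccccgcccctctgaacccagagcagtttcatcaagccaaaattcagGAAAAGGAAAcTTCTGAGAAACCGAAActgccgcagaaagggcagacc
Ifitm6 (chr7:141016843-141017142, - strand): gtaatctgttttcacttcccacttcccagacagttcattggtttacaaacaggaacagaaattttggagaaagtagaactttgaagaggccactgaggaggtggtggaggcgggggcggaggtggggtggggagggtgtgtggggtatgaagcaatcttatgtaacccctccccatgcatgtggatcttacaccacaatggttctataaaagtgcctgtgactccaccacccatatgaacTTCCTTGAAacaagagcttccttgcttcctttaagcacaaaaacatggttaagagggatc

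The interferon-stimulated element matched 2 times in the Ifitm3 window, at positions 3 and 20 counted from the start as 1, and 1 time in the Ifitm2 window, at position -46. It had 0 matches in the windows of Ifitm1, Ifitm6 and the 3 RefSeq starts of Ifitm10. Of all 32851 promoter windows 3.44% held it. A gamma-activated sequence lay at position 14 of Ifitm3, where it overlaps the second interferon element, and at position -10 of Ifitm6, against 8.3% of all windows. The NF-kB consensus matched in Ifitm3 only among the members, at position -116, against 8.46% of all windows. Each match is a match of letters in 1 window, and neither a match nor its absence shows what binds there.

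All values are CPM, reads scaled to 1 common library total. Low values lie on steps that give 4.72 to 27.6 reads per CPM, with control tumours 2 and 3 the shallowest at 7.12 and 4.72. The listed genes held 39.8% to 66.1% of the library totals, lowest in control tumours 3 and 2, and the median log2 fold change of the 12824 tested genes was 0.23 on the deposited scale. Values after median-of-ratios size factors (RLE), which bring that median to 0.01, are given beside the deposited ones. All 10 defining monocyte markers were measured, led by Lyz2, the lysozyme gene, at 5324 ± 622 CPM (SD, n = 3) in BAFF tumour and 3793 ± 1715 CPM in control tumour libraries. Their sum was 9538 to 11064 CPM and 5335 to 9837 CPM. None was called in limma on the deposited scale, where 5.31% of all tested genes were. At an unadjusted p under 0.05 there were 3 on that scale, against 2053 of all 12824 genes. After RLE 3 were called higher and 1 lower, against 7.18% and 9.91% of all genes. Each of these RLE calls was lost in at least 1 fit with a library left out (limma adjusted p up to 0.0517 for Cd14, 0.124 for Ccr2, 0.0931 for Tyrobp and 0.098 for Cx3cr1). The median log2 fold change of the 10 markers was 0.56, and 0.31 after RLE.

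Levels differed widely between the members. Ifitm3 was the most abundant member, ranked 250 of 18341 genes by mean CPM, followed by Ifitm2 at rank 544. Ifitm6 ranked 4806, Ifitm1 6270 and Ifitm10 14990. Per kilobase of the longest protein-coding transcript, the level in control tumour libraries was 356 ± 123 CPM per kb for Ifitm3 and 195 ± 43.3 for Ifitm2 (SD, n = 3). It was 17.9 ± 5.8 for Ifitm6, 7.31 ± 2.5 for Ifitm1 and 0.0578 ± 0.015 for Ifitm10. In BAFF tumour libraries the same order held on this measure, with 507 ± 38.1, 309 ± 33.9, 33.5 ± 7.6, 22.7 ± 1.9 and 0.167 ± 0.11 CPM per kb. Ifitm6 and Ifitm1 are neighbours in that order. With the shortest transcript of each, Ifitm6 stood at 41.1 ± 9.4 and Ifitm1 at 35.7 ± 3.1 CPM per kb, a gap smaller than the SD of Ifitm6.

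**Figure D1:**
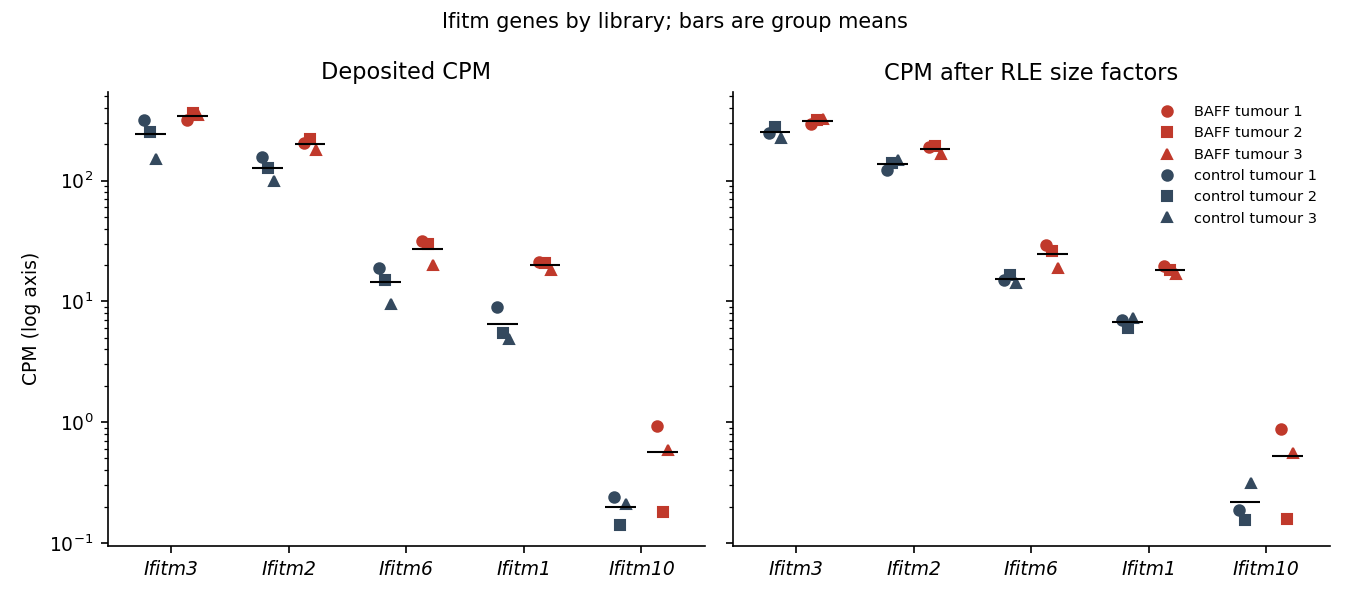
CPM on a log axis for the 5 Ifitm genes in each library, with deposited values on the left and values after RLE size factors on the right; points are libraries and bars are means of 3. Ifitm1 in BAFF tumour libraries (18.1 to 21.2 CPM deposited) lies above every control library (4.87 to 8.99 CPM), while Ifitm10 stays under 1 CPM.

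Ifitm1 was the member that differed most between the groups. It stood at 21.2, 20.7 and 18.1 CPM in BAFF tumours 1, 2 and 3 and at 8.99, 5.48 and 4.87 CPM in control tumours 1, 2 and 3. Every BAFF tumour library was above every control library. The means were 20.02 ± 1.7 and 6.44 ± 2.2 CPM (SD, n = 3), a log2 fold change of 1.53 ± 0.32 (SE) on the log2(CPM + 1) scale, or 2.896-fold. After RLE the BAFF tumour values were 19.8, 18.1 and 16.8 and the control values 7.06, 6.03 and 7.23, with a control SD of 0.651 CPM. The RLE log2 fold change was 1.31 ± 0.14. Among the 12824 tested genes 11 had a larger increase on either scale. With each library left out in turn the fold change ran from 1.38 to 1.77 on the deposited scale and from 1.24 to 1.36 after RLE.

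Counting error of Ifitm1 was smaller than the gap between groups. Its lowest count was 23 reads in control tumour 3, which gives a 95% exact Poisson interval of 3.09 to 7.31 CPM. The 183 reads of BAFF tumour 3 give 15.5 to 20.9 CPM, and the highest control interval, that of control tumour 1, ended at 10.2 CPM. Such intervals cover counting error only.

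Ifitm2, one of the endosomal members, had 206, 223 and 179 CPM in BAFF tumours 1, 2 and 3 and 156, 127 and 99.7 CPM in control tumours 1, 2 and 3. The groups did not overlap, and the SDs were 22.2 and 28.4 CPM (n = 3). The means of 202 and 128 CPM gave a log2 fold change of 0.68 ± 0.32 (SE), and 0.43 ± 0.11 after RLE, where the values were 191, 194 and 167 against 123, 139 and 148. Again no BAFF tumour value fell into the control range.

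Ifitm3, the main antiviral member, was high in every library. It stood at 315, 366 and 350 CPM in BAFF tumours 1, 2 and 3 and at 317, 254 and 152 CPM in control tumours 1, 2 and 3. Control tumour 1 was above BAFF tumour 1, so the groups overlapped, and control tumour 3 was the lowest. The log2 fold change was 0.57 ± 0.32 (SE) and fell to 0.32 ± 0.11 after RLE. On that scale the values were 294, 319 and 326 against 249, 279.5 and 226, without overlap.

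Ifitm6, the myeloid member, stood at 31.6, 29.9 and 20.1 CPM in BAFF tumours 1, 2 and 3 and at 18.99, 15.03 and 9.53 CPM in control tumours 1, 2 and 3. BAFF tumour 3 came within 2 CPM of control tumour 1, and the counting intervals of these libraries, 17.5 to 23.1 and 17.4 to 20.7 CPM, overlapped. The interval of control tumour 2, 12.3 to 18.2 CPM, also overlapped that of BAFF tumour 3. The log2 fold change was 0.89 ± 0.32 (SE), and 0.65 ± 0.16 after RLE, where the groups did not overlap. Within the BAFF tumour group the spread of Ifitm6 after RLE, an SD of 5.5 on a mean of 24.8 CPM, was wider than that of Ifitm1, 1.5 on 18.2 CPM.

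Ifitm10, a distant relative outside the cluster, was close to absent. It was counted as 9, 5 and 6 reads in BAFF tumours 1, 2 and 3, which is 0.933, 0.181 and 0.592 CPM. The control libraries held about 7, 1 and 1 reads, or 0.2395, 0.14 and 0.212 CPM. The groups overlapped, BAFF tumour 2 was below 2 of the control libraries, and no fold is given because 2 libraries rest on 1 read. Ifitm5, outside the set, stood at 1.14 ± 0.13 and 0.909 ± 0.30 CPM (log2 fold change 0.18 ± 0.30, limma adjusted p = 0.773). Ifitm7 was not found by symbol.

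**Figure D2:**
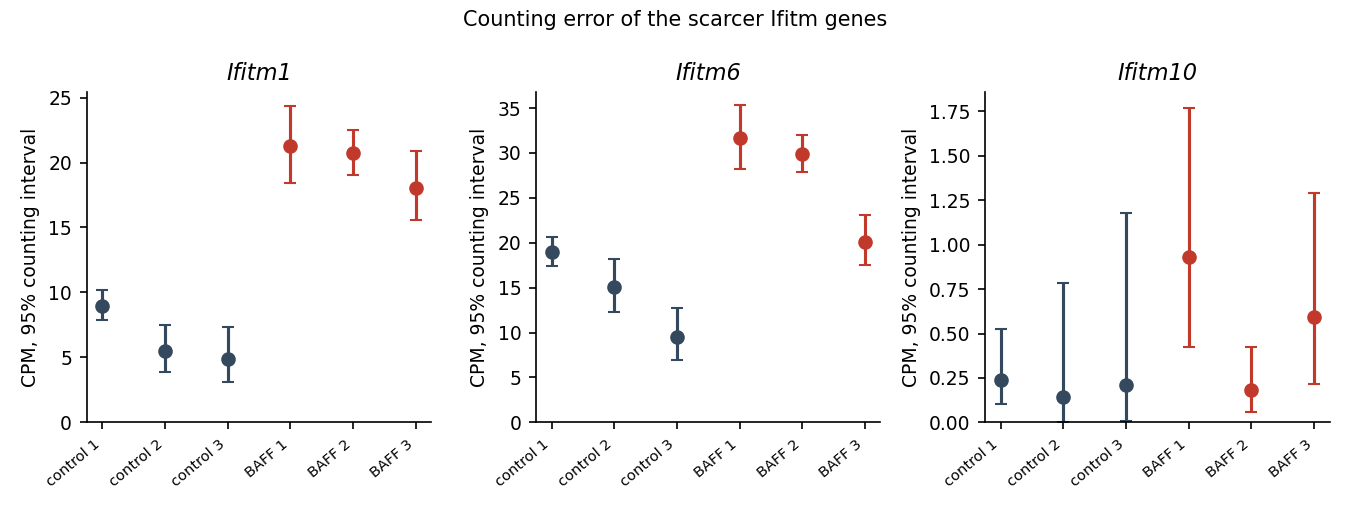
CPM of Ifitm1, Ifitm6 and Ifitm10 in each library with 95% exact Poisson intervals from the estimated reads. The Ifitm1 intervals of the 2 groups are apart. The Ifitm6 interval of BAFF tumour 3 overlaps those of control tumours 1 and 2, and the Ifitm10 intervals overlap widely.

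On the deposited scale 1 of the 4 members with a mean of 1 CPM or more, Ifitm1, was past the threshold of limma adjusted p under 0.05 in the upward direction, as were 1.81% of all tested genes. After RLE 3 were, Ifitm1, Ifitm2 and Ifitm6, against 7.18% of all genes. The groups were apart with BAFF tumour higher for 3 of the 4 on the deposited scale and for 4 after RLE, against 11.4% and 17.3% of all genes, and with BAFF tumour lower for 0, against 6.6% and 17.8%. In either direction 5.31% of all genes were called on the deposited scale and 17.1% after RLE. Because this comparison led to the choice of the family, nothing is read from these counts. The calls of Ifitm2, Ifitm3 and Ifitm6 moved with single libraries. That of Ifitm1 did not, which is no support, since its values led to the choice. Without control tumour 1, Ifitm2, Ifitm3 and Ifitm6 were called on the deposited scale with log2 fold changes of 0.84, 0.80 and 1.09, and the number of genes called rose from 681 to 5192. After RLE the call of Ifitm2 was lost without BAFF tumour 1 (0.40), BAFF tumour 2 (0.39) or control tumour 1 (0.35). That of Ifitm6 was lost without BAFF tumour 1 (0.52) or 2 (0.60), and Ifitm3 was called without control tumour 2 (0.39).

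The make-up of the family within a library does not depend on how libraries are scaled. Ifitm1 made up 3.698%, 3.24% and 3.18% of the summed CPM of the 5 genes in BAFF tumours 1, 2 and 3, and 1.79%, 1.37% and 1.83% in control tumours 1, 2 and 3. Its share was higher in each BAFF tumour library than in any control library, with means of 3.37% ± 0.28 and 1.66% ± 0.26 (SD, n = 3). Ifitm3 held 57.9% ± 3.5 and 61.2% ± 3.5, Ifitm2 34.04% ± 2.2 and 33.4% ± 3.5, and Ifitm6 4.58% ± 0.98 and 3.70% ± 0.11, and for these 3 genes the groups overlapped. For each read of Ifitm1 there were 10.1 ± 0.57 of Ifitm2 in BAFF tumour libraries and 20.3 ± 2.9 in controls. The ratio of Ifitm6 to Ifitm1 was 1.35 ± 0.20 and 2.27 ± 0.42, again without overlap. The ratio of Ifitm3 to Ifitm2 was 1.71 ± 0.22 and 1.85 ± 0.28, and its groups overlapped. The summed CPM of the family was 568 to 639 in BAFF tumour and 267 to 502 in control tumour libraries. These sums and ratios come from the comparison that led to the family and are a description. In sorted bulk RNA a change in the number of cells of a type and in RNA per cell cannot be told apart.

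**Figure D3:**
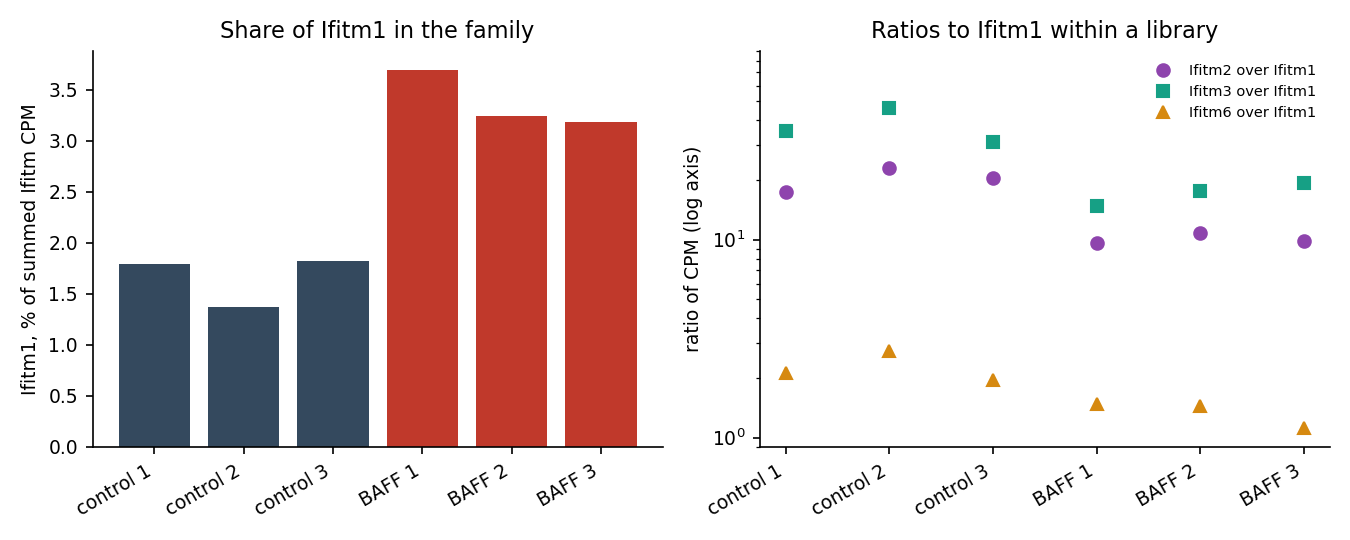
Left, Ifitm1 as a percentage of the summed CPM of the 5 Ifitm genes in each library; right, the CPM of Ifitm2, Ifitm3 and Ifitm6 divided by that of Ifitm1, on a log axis. The share is 3.18% to 3.698% in BAFF tumour and 1.37% to 1.83% in control tumour libraries, and all 3 ratios are lower in every BAFF tumour library.

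Likeness across the 6 libraries was measured as the root mean square difference of centred log2(CPM + 1) values after RLE, over the 9096 genes whose mean reached 5 CPM. The gene most like Ifitm1 was B3gnt5, a glycosyltransferase gene, at 0.0982, against a root mean square of 0.66 for Ifitm1 itself. B3gnt5 stood at 57.2 ± 9.0 CPM in BAFF tumour and 18.4 ± 4.6 CPM in control tumour libraries. Next came Id1 (0.142), an inhibitor of basic helix-loop-helix factors, Clec7a (0.151), the beta-glucan receptor Dectin-1, Dmkn (0.153) and Flrt3 (0.159). Of the other members Ifitm6 ranked 234 in likeness to Ifitm1 (0.377), Ifitm2 609 (0.456) and Ifitm3 1501 (0.531). The genes most like Ifitm2 were Itgb2, the beta-2 integrin chain (0.0451), Ncf4, an NADPH oxidase subunit (0.0452), and Rps27rt (0.047). Those most like Ifitm3 were Kin (0.0202), Sp140 (0.0224) and Smarca5 (0.0351), and those most like Ifitm6 were Il7r (0.0508), Rnh1 (0.0715) and Ptger2 (0.0827). With 6 libraries in 2 groups, likeness takes in the size of the group difference, and it is a description.

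**Figure D4:**
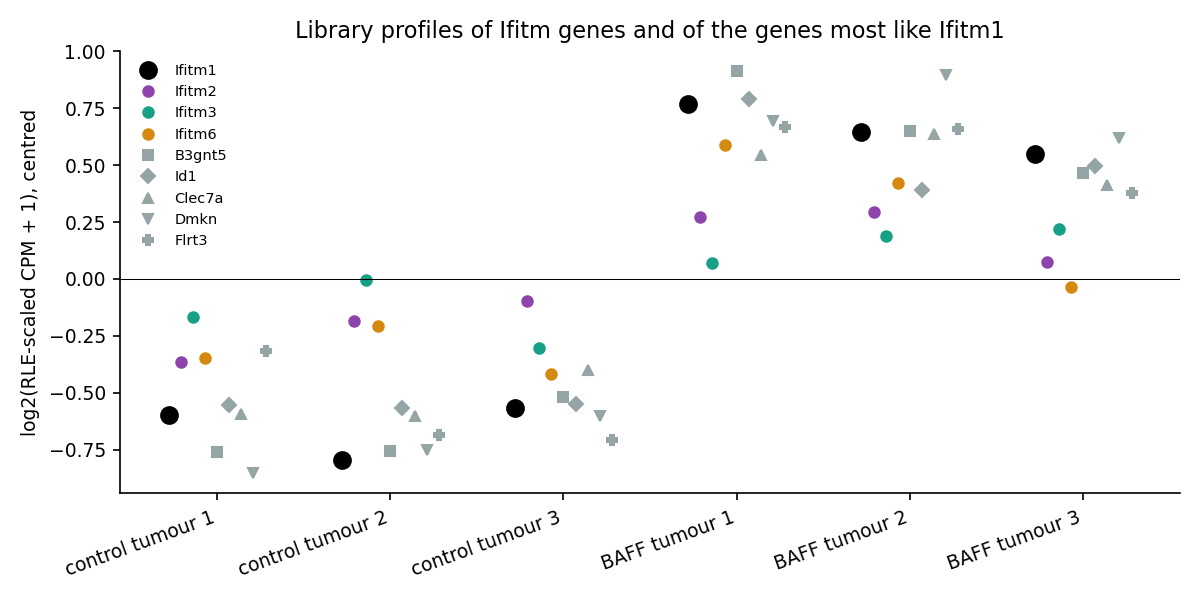
Centred log2(CPM + 1) after RLE in each library for Ifitm1, Ifitm2, Ifitm3, Ifitm6 and the 5 genes most like Ifitm1. Ifitm1 and its 5 nearest genes lie above 0 in every BAFF tumour library and below 0 in every control tumour library, while Ifitm3 stays between -0.31 and 0.22.

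Type I interferon stimulated genes, the group to which the Ifitm genes are usually assigned, were not called higher beside Ifitm1. Of 44 list members tested 0 were called on the deposited scale in limma in either direction, where 5.31% of all tested genes were, and their median log2 fold change was 0.21 against 0.23 for all genes. After RLE 0 were called higher and 5 lower, against 7.18% and 9.91% of all genes, and the list median was -0.03. At an unadjusted p under 0.05 the list held 2 genes on the deposited scale and 11 after RLE. Of all 12824 tested genes 2053 and 3919 were under it. Ifit3, an interferon-induced RNA-binding protein gene, stood at 42.2, 51.8 and 44.97 CPM in BAFF tumours and 89.3, 82.6 and 45.1 CPM in controls 1, 2 and 3. It was lower after RLE (log2 fold change -0.83 ± 0.12, SE; limma adjusted p = 0.000914) and not called on the deposited scale (-0.58, adjusted p = 0.365). Its near copy Ifit3b was also lower after RLE (-0.73 ± 0.16, adjusted p = 0.0099), with uncertain counting between the pair. Ifi44, Ifit2 and Lgals3bp were the other 3. Ifi44 lost its RLE call without control tumour 1 (adjusted p = 0.0539), and Ifit2 kept its call in 1 of 6 fits with a library left out (adjusted p up to 0.126). Ifi204, the most abundant member and a DNA sensor gene, stood at 382 ± 48.7 and 286 ± 83.7 CPM (log2 0.46, adjusted p = 0.50). Trim25 and Slfn8 had 218 ± 36.1 against 141 ± 41.4 CPM (adjusted p = 0.287) and 93.8 ± 12.9 against 67.4 ± 24.6 CPM (adjusted p = 0.411). Without control tumour 1 the deposited scale called 15 of the 44 higher, where 5192 of all 12824 genes were called in either direction. RLE with that library left out called 0 of the 44 higher, where 1821 of all genes were called in either direction.

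Most interferon gamma induced genes were not called. Of 18 tested, 1 was called lower on the deposited scale and 0 higher, against 3.5% and 1.81% of all genes. After RLE 15 were not called, 2 were lower and 1 was higher, near the 9.91% and 7.18% of all genes, and the list median was -0.21. Gbp2b, a guanylate-binding GTPase gene, was lower on both scales (deposited log2 -2.34 ± 0.32, limma adjusted p = 5.87e-10; RLE -2.58 ± 0.63, adjusted p = 0.0156), though its values of 4.26, 13.4 and 37.97 CPM overlapped the controls at 230.6, 31.5 and 50.04 CPM. The deposited SE and p-value reflect genes of like level rather than the spread of Gbp2b itself. The RLE call was lost without BAFF tumour 2 (adjusted p = 0.0614). Gbp2, its close relative, was the most abundant of the list at 540.5 ± 161 and 284 ± 87.2 CPM, called higher after RLE (0.67 ± 0.18, adjusted p = 0.0265) and not on the deposited scale (adjusted p = 0.0688). That call was kept in 2 of the 6 fits with a library left out (adjusted p up to 0.117). Irgm2 was lower after RLE (adjusted p = 0.0371), in 2 of the 6 such fits (up to 0.112). Tgtp1 and Iigp1 had 17.2 ± 9.1 against 28.7 ± 18.3 CPM and 63.3 ± 38.0 against 103.8 ± 59.1 CPM, and neither was called.

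Receptors and signalling genes of the interferon pathway were called higher where they were called. On the deposited scale 1 of 21 tested was called higher and 0 lower, against 1.81% and 3.5% of all genes. The list median was 0.44 (log2), against 0.23 for all genes. After RLE 8 were called higher and 0 lower, against 7.18% and 9.91% of all genes. The median was then 0.19, against 0.01 for all genes. Jak2, a kinase shared by the interferon gamma receptor and many cytokine receptors, stood at 133, 139.6 and 149 CPM in BAFF tumours and 93.04, 80.7 and 46.4 CPM in controls. Its groups were apart (log2 0.99 ± 0.32, SE; limma adjusted p = 0.0425), but on the deposited scale the call was lost without any of the libraries other than control tumour 1 (adjusted p 0.0674 to 0.358). After RLE it was called in the full fit (0.73 ± 0.11, adjusted p = 0.00105) and in all 6 fits with a library left out. Socs3 and Ptpn2, feedback inhibitors of cytokine signalling, and Ifnar1, a chain of the type I interferon receptor, did the same after RLE, with 0.62 ± 0.11 (adjusted p = 0.0027), 0.59 ± 0.13 (0.00896) and 0.49 ± 0.10 (0.00523). On the deposited scale these 3 were not called (adjusted p 0.0942, 0.113 and 0.193). Stat3, Ifnar2, Ifngr1 and Irf5 completed the 8, each losing its RLE call in at least 1 such fit (adjusted p up to 0.0541, 0.0714, 0.165 and 0.104). Ifnb1, the interferon beta gene, and Ifnlr1 had means under the 1 CPM filter, at 0.599 against 0.741 and 0.126 against 0.144 CPM.

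**Figure D5:**
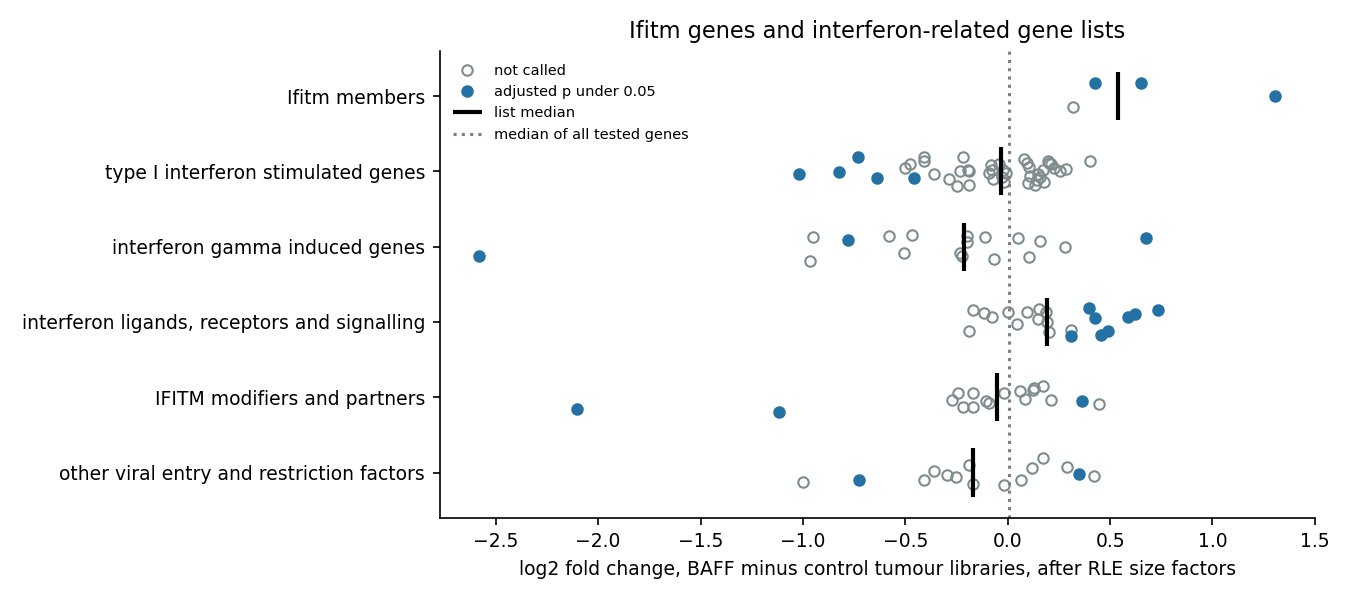
Log2 fold changes after RLE of the Ifitm genes and of 5 lists of related genes; each point is a gene, filled where the limma adjusted p is under 0.05, bars are list medians and the dotted line is the median of all tested genes at 0.01. Ifitm1 at 1.31 is the highest point shown, and the type I interferon stimulated genes centre on -0.03.

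Genes whose products modify or bind IFITM proteins held a decrease that passed on both scales, that of Nedd4. Nedd4 encodes a ubiquitin ligase that marks human and mouse IFITM3 for turnover. It stood at 15.03, 15.6 and 10.5 CPM in BAFF tumours 1, 2 and 3 and at 80.2, 44.4 and 38.7 CPM in controls 1, 2 and 3. No BAFF tumour library came near the controls, and the log2 fold change was -1.86 ± 0.32 (SE; limma adjusted p = 2.47e-06) and -2.10 ± 0.15 after RLE (adjusted p = 1.59e-05), called in all 6 fits with a library left out on both scales. Cd81, the tetraspanin partner of IFITM1, stood at 24.9, 25.05 and 15.3 CPM against 50.2, 45.4 and 27.5 CPM. Its groups were apart, and it was called lower after RLE (-1.12 ± 0.17, adjusted p = 0.0009) and not on the deposited scale (-0.87, adjusted p = 0.087). Vapa, an IFITM3-binding protein of the endoplasmic reticulum, was higher after RLE (0.37 ± 0.10, adjusted p = 0.025) but in only 2 of 6 fits with a library left out (adjusted p up to 0.0963). Of the 18 tested genes 0 were called higher and 1 lower on the deposited scale, and 1 higher and 2 lower after RLE. These counts are near the share of all genes, which was 1.81% higher and 3.5% lower on the deposited scale and 7.18% and 9.91% after RLE. Cd9 had 91.8 ± 31.4 against 54.95 ± 14.1 CPM (adjusted p = 0.232), and the adaptor subunit gene Ap2a2, the most abundant, 159.6 ± 4.3 against 149 ± 52.3 CPM (adjusted p = 0.806).

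Other viral entry and restriction factors gave 0 calls in limma among 15 tested on the deposited scale, where 5.31% of all genes were called. At an unadjusted p under 0.05 there were 2 of the 15, and 2053 of all 12824 genes. After RLE 1 was called in each direction, against 7.18% of all genes higher and 9.91% lower. After RLE Zc3hav1, the zinc-finger antiviral protein gene, was called higher (0.35 ± 0.10, limma adjusted p = 0.03) and Mov10, an RNA helicase gene, lower (-0.72 ± 0.20, adjusted p = 0.0252). With a library left out, Zc3hav1 was kept in 1 of 6 fits and Mov10 in 3 (adjusted p up to 0.108 and 0.0928). Ly6e, a surface protein gene that blocks coronavirus fusion and the most abundant of this list, stood at 585 ± 72.2 and 491.5 ± 192 CPM (adjusted p = 0.636). Ch25h, Serinc5 and Samhd1 were not called on either scale (adjusted p 0.116, 0.283 and 0.413 deposited).

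The 6 measured and tested genes among the 5 nearest on each side of the Ifitm cluster on chromosome 7 were not called in limma on either scale. In RefSeq order Ifitm5, Ifitm2, Ifitm1, Ifitm3 and Ifitm6 lie side by side. The nearest measured gene on one side, Pgghg, stood at 7.93 and 6.28 CPM (log2 0.32, limma adjusted p = 0.62). On the other side B4galnt4 had a mean under 1 CPM, and Pkp3 (0.33, adjusted p = 0.60), Sigirr (0.07) and Ptdss2 (0.13) were not called. Ctsd, the cathepsin D gene beside Ifitm10, stood at 1604 ± 303 and 1703 ± 686 CPM (-0.03, adjusted p = 0.969). In the wider list of neighbours, 0 of 10 tested were called on the deposited scale. After RLE 1, Rnh1, was called higher (0.58 ± 0.13, limma adjusted p = 0.00836). At an unadjusted p under 0.05 the deposited scale held 1 of the 10, and 2053 of all 12824 genes. Of all tested genes 5.31% were called on the deposited scale and 17.1% after RLE (7.18% higher), so nothing about the locus is read from these counts.

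Markers of other cells moved in the same libraries, and their part in the Ifitm values was not tested. For comparison with the counts of each list, 1.81% of all genes were called higher and 3.5% lower on the deposited scale, and 7.18% and 9.91% after RLE. Of 8 tested neutrophil markers 5 were called higher on the deposited scale and 3 after RLE, with summed levels of 213 to 321 CPM in BAFF tumour and 101 to 221 CPM in control tumour libraries. Csf3r, the most abundant, had 70.1, 86.95 and 101.8 CPM against 81.8, 44.1 and 35.98 CPM, with overlap. After RLE it had 65.3, 75.8 and 94.9 CPM against 64.2, 48.5 and 53.5 CPM, without overlap, and was called higher. Il1r2 was called on both scales, and the other calls in this list were each on 1 scale. With a library left out in turn the deposited calls were kept in 2 to 5 of 6 fits, and after RLE that of Il1r2 in 6 and those of Csf3r and Retnlg in 2. Ly6C-high monocyte markers had 4 of 12 called higher, and 8 after RLE (4755 to 5270 against 2630 to 4496 CPM), and with a library left out 1 of the deposited calls and 4 of the RLE calls were kept in all 6 fits. Of 12 macrophage markers 2 were lower, and 8 after RLE (2851 to 3183 against 2854 to 6516 CPM). Of 10 melanoma markers 8 were lower, and 9 after RLE, with sums of 147 to 226 and 461 to 801 CPM. Dct, the most abundant melanoma marker, stood at 47.8 ± 14.8 and 202 ± 54.4 CPM, lower in the same libraries as Nedd4. Dendritic cell markers had 2 of 8 called higher on either scale (40.7 to 52.6 against 24.2 to 46.9 CPM). Flt3 and Cd209a kept these calls in 2 and 3 of the 6 fits with a library left out on the deposited scale, and in 5 and 2 after RLE. T and NK cell markers had 0 of 10 called on either scale (20.9 to 32.5 against 13.8 to 40.7 CPM). At an unadjusted p under 0.05 they held 2 on the deposited scale and 1 after RLE, against 2053 and 3919 of all 12824 genes. B and plasma cell markers had 1 of 3 lower (26.3 to 39.8 against 27.5 to 70.1 CPM). Endothelial markers had 0 of 4 called, and 2 higher after RLE (35.2 to 45.7 against 19.3 to 31.2 CPM). Fibroblast markers had 0 of 8 called, and 1 lower after RLE (37.9 to 61.7 against 34.1 to 263 CPM). Ly6C-low monocyte markers had 0 of 10 called, and 1 in each direction after RLE (1228 to 1349 against 757 to 1206 CPM), and red cell and platelet markers 0 of 5 (67.02 to 138 against 99.9 to 231 CPM). Each call in the B and plasma cell, endothelial, fibroblast and Ly6C-low lists was lost in at least 1 fit with a library left out. Some of the macrophage and melanoma calls were lost in such fits too. No marker found in the table was at 0 in all 6 libraries.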

How the data were processed

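The authors deposited 1 table of gene-level CPM (reads scaled to a common library total) for the 6 libraries, identified as CPM from its values. Partek, STAR 2.4.1d and Bowtie2 2.2.5 are named without roles, per the submitters' processing notes. Build, annotation, counting rule and filters are not stated there. Libraries came from a TruSeq v2 kit, which does not mark strand, per the labels' protocols. The misspelt header of control 2 was read as that title. Between 84.7% and 86.3% of low values were within 0.02 of whole reads, and other values were not, so no count model was used.

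Limma-trend (limma 3.58.1, R 4.3.3) was run on log2(CPM + 1) without rescaling over the 12824 genes whose mean reached 1 CPM, and p-values were adjusted by Benjamini-Hochberg over all of them. RLE factors were computed on the tested genes, applied to CPM before the log, and are an alternative. On the deposited scale the prior degrees of freedom were infinite, so an SE or p-value there reflects the spread of genes of like level rather than that of the gene itself. A pseudocount of 1 understates changes of low genes. The members and lists were chosen with earlier results of these data known. Named genes are every member, the 5 genes nearest to Ifitm1 and 3 to each other member, the 4 smallest p and the most abundant of each pathway list, and the most abundant of the monocyte, neutrophil, dendritic cell and melanoma marker lists. Under the same rule the most abundant genes of the other marker lists are not named, and the result of 1 pathway gene is not reported here. Genes named only for a call on 1 scale or after RLE, for a low value or for their position were chosen after their values were seen. No libraries of a group agreed within sampling noise (chi-square per degree of freedom at least 8.15). The list entries found numbered 44 of 44 for type I interferon stimulated genes, 23 of 23, 19 of 19 and 15 of 15 for interferon signalling, interferon gamma and restriction factors, and 19 of 20 for IFITM modifiers. Of the 8 entries for other CD225 domain genes 0 were found by symbol. The keratinocyte list, with 1 of 5 found, is not described here.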

Additional observations from a re-analysis of the deposited data

How the results depend on the processing

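As a description only, since this comparison led to the choice of the family, the log2 fold change of Ifitm1 ran from 1.24 to 1.77 over the alternatives run, past the threshold in each. Ifitm2 and Ifitm6 were not called on the deposited scale, but were with RLE (0.43 and 0.65), TMM (0.42 and 0.64), upper-quartile factors (0.38 and 0.60) and RLE with the replicate block (0.43 and 0.65). Without 1 library, on either scale, Ifitm2 ran from 0.35 to 0.84, Ifitm3 from 0.24 to 0.80 and Ifitm6 from 0.52 to 1.09. Ifitm1, Ifitm2, Ifitm3 and Ifitm6 kept their direction in each, and no fold change is given for Ifitm10. The number of genes called was 681, and 2192 with RLE, 2155 with TMM, 2080 with upper-quartile factors, 1940 with RLE and the replicate block, 316 with a filter at a mean of 5 CPM, and 167 to 5192 without 1 library. With RLE, TMM, upper-quartile factors and RLE with the block, type I interferon stimulated genes had 5 called lower each, interferon signalling genes 8, 8, 6 and 7 higher, interferon gamma genes 1 higher and 2 lower each, and IFITM modifiers 1 higher and 2 lower each. Restriction factors had 1 higher with RLE and TMM, and 1, 1, 1 and 2 lower. Interferon signalling had 0 higher with the filter at 5 CPM and 0 with the replicate block alone. Without 1 library, calls higher and lower ran from 0 to 15 and 0 to 7 for type I interferon stimulated genes, 0 to 15 higher for signalling, 0 to 5 and 0 to 5 for interferon gamma genes, 0 to 8 and 1 to 3 for modifiers, and 0 to 5 and 0 to 2 for restriction factors. The cause was not tested. Same-numbered libraries did not deviate together (r = -0.0494, 0.0524 and -0.0387 over 12824 genes), which does not show whether they were collected or handled together. The fit with the replicate block called 608 genes. Depth limits Ifitm10, where 3 reads are 0.109 to 0.635 CPM.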
